A study of Mus musculus with 6 samples.

Results

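Myosin heavy chain (MyHC) transcripts were examined in bulk RNA-Seq of gastrocnemius/plantaris (GP) muscle through 9 genes, chosen by symbol: Myh7, Myh2, Myh1, Myh4, Myh3, Myh8, Myh6, Myh7b and Myh13. These are 9 of the 24421 genes listed in the count tables, and 9 of 9 passed edgeR's filter on low counts. The labels describe mice of a B6C3F1 background (the study's methods add a cross of the founders to C57BL/6N), each homozygous for a floxed Net39 allele (Net39 fl/fl) and all given tamoxifen, at 5 months of age, 3 months after the drug. By their labels, the 3 Ctrl libraries are from mice without Cre, and the 3 cKO libraries from mice that also carried HSACreERT2, a Cre recombinase that tamoxifen activates and that the human skeletal actin promoter restricts to skeletal muscle fibres, so that other cells of the muscle keep the allele. The loxP sites flank the first exon of Net39, which encodes a protein of the nuclear envelope of muscle.

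Total counts ranged from 33860001 to 48839910 per library, and muscle fibre markers (Acta1, Ckm, Actn3, Mb, Ttn and Pvalb) summed to 60633 to 66182 CPM (counts scaled by library size with TMM factors) in labelled Ctrl and 77205 to 103315 CPM in labelled cKO libraries, with 3 of 6 higher in labelled cKO libraries (12.6% of all genes tested). These were Ckm, which passed in 2 of 6 fits that left out 1 library, and Pvalb and Actn3, counted below as fast-fibre markers too. Acta1, Ttn and Mb did not pass, and Mb was lower in labelled cKO libraries on average. Net39 is listed under its older symbol Ppapdc3 and went against the labels, with 5.93 to 7.92 CPM in labelled Ctrl and 113 to 151 CPM in labelled cKO libraries. The study itself reported less Net39 mRNA in cKO GP muscle by RNA-Seq and less NET39 protein in cKO quadriceps by Western blot. Which group carried the deletion is thus unsettled in these data. Groups are therefore called labelled Ctrl and labelled cKO throughout, the labelled Ctrl libraries being those with low Ppapdc3, and a log2 fold change above 0 means a higher level in labelled cKO libraries. Reads of the floxed exon cannot be told from those of the rest of the gene in these counts.

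Sarcomeric MyHC is the motor of the thick filament, and the isoform a fibre makes sets how fast it shortens. In adult mouse limb muscle, Myh7 encodes the slow type I isoform, Myh2 the fast oxidative type IIa, Myh1 the type IIx and Myh4 the fast glycolytic type IIb. Myh3 encodes the embryonic and Myh8 the neonatal isoform, which limb muscle normally replaces after birth and makes again in regenerating fibres. Myh6 encodes the alpha isoform of heart, Myh13 the isoform of extraocular muscle, and Myh7b a slow-type isoform, from a gene with a microRNA in an intron.

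Of the 9 genes, 6 lie in 1 cluster on the plus strand of chromosome 11 in the order Myh3, Myh2, Myh1, Myh4, Myh8 and Myh13, over 293.3 kb of GRCm38 (mm10). Myh2 (67171027 to 67197517) and Myh1 (67200052 to 67224575) are 2534 bases apart, and Myh4 (67238029 to 67260446) and Myh8 (67277124 to 67308634) are 16677 bases apart. Myh3 (67078300 to 67102291) stands 68735 bases before Myh2. Myh7 (54970684 to 54994626) and Myh6 (54941921 to 54966927) are neighbours on the minus strand of chromosome 14, and Myh7b (155611212 to 155634307) lies on the plus strand of chromosome 2. The RefSeq promoter table (GRCm38.p6) held windows for 9 of the 9 genes, each from 250 bases before to 50 bases after a start.

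The upstream sequences of Myh2, Myh1, Myh4 and Myh8 are shown because these neighbours share letters yet differed in direction. They are read 5′ to 3′ on the plus strand, start 220 bases before the RefSeq start, and stop before the first annotated exon, so that the Myh1 stretch holds 170 bases. Capitals mark the longest runs shared by all 4 genes and by Myh1, Myh4 and Myh8. Their positions are Myh2 chr11:67170807-67171026, Myh1 chr11:67199882-67200051, Myh4 chr11:67237592-67237811 and Myh8 chr11:67276904-67277123.
Myh2: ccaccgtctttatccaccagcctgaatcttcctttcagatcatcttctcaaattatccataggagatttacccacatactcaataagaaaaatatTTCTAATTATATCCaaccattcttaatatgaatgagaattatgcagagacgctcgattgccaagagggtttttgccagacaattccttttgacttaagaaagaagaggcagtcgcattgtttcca
Myh1: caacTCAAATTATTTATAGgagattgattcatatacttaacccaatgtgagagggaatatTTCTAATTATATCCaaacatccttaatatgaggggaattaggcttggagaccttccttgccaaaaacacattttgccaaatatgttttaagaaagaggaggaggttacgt
Myh4: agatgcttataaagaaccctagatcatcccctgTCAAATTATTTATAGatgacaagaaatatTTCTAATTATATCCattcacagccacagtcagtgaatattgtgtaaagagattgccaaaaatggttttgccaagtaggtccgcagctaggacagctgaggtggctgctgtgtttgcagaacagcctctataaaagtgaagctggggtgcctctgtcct
Myh8: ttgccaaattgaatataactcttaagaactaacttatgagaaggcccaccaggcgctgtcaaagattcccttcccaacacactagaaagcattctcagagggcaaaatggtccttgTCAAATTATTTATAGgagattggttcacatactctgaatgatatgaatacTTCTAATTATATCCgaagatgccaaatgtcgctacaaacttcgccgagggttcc

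The run common to the 4 genes, TTCTAATTATATCC, was found on either strand in 4 of all 32851 windows (0.0122%), which are those of Myh2, Myh1, Myh4 and Myh8. Its first base lies 125, 160, 158 and 54 bases before the RefSeq start of Myh2, Myh1, Myh4 and Myh8 (positions -125, -160, -158 and -54). The run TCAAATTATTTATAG was found in Myh1, Myh4 and Myh8 alone (0.00913% of windows) and overlaps a match there to the consensus of MEF2, a family of muscle transcription factors, which 3.19% of windows hold. The CArG box, bound by serum response factor, was matched in Myh4 and Myh13 (1.63% of windows), TATAAA in 6 of the 9 genes (13.6% of windows) and the E-box CANNTG in 7 (72.3% of windows), on both strands. The runs were found after the values were seen, and a match describes letters, not binding.

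The fast type IIb gene Myh4 was higher in labelled cKO libraries, and the type IIa and IIx genes Myh2 and Myh1 and the embryonic gene Myh3 were higher in labelled Ctrl libraries, those with low Ppapdc3. The neonatal gene Myh8 went with Myh4, not with Myh3. The slow gene Myh7 and the low genes Myh6 and Myh7b were lower in each library labelled cKO than in any labelled Ctrl but did not pass the test. By edgeR's quasi-likelihood test with Benjamini-Hochberg adjustment over the 14180 genes tested, an adjusted p under 0.05 was reached by 5 of 9, against 24.4% of all genes tested. Of these, 2 were higher in labelled cKO libraries (12.6% of all genes) and 3 in labelled Ctrl libraries (11.8%), and 4 of the 5 also had a fold change over 2 (6.05% of all genes tested), 2 in each direction (2.13% higher in labelled cKO and 3.92% in labelled Ctrl libraries). The median log2 fold change was -1.23 over the 9 genes and -0.02 over all genes tested. When libraries were scaled by total counts, that median over all genes became -0.27, and genes past both thresholds split 157 to 1023 rather than 302 to 556, but none of the 9 genes changed direction and Myh4 and Myh8 stayed higher in labelled cKO libraries. In 8 of the 9 genes the groups did not overlap in CPM, against 43.9% of all genes tested, 6 of them higher in labelled Ctrl libraries (21.9% of all genes) and 2 in labelled cKO libraries (22%). In bulk muscle, fewer fibres of a type and less RNA per fibre cannot be told apart.

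**Figure D1:**
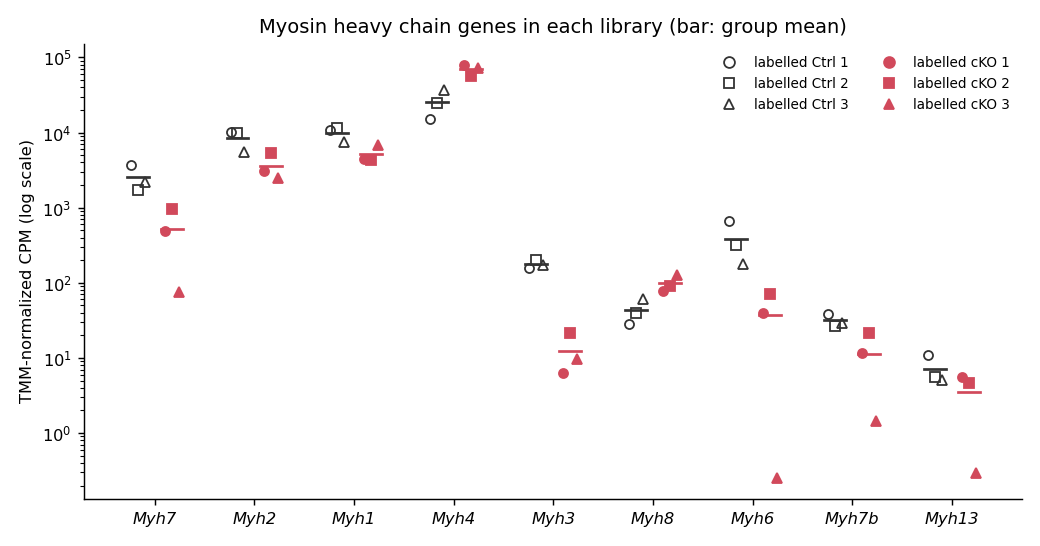
TMM-normalized CPM of the 9 MyHC genes in each of the 6 libraries on a log axis, with open black symbols for libraries labelled Ctrl, filled red symbols for those labelled cKO and bars for group means. Myh4 and Myh8 lie higher in labelled cKO libraries, the other genes lie lower there on average, and the library labelled cKO 3 lies lowest for 5 of the 9 genes.

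Type IIb Myh4 was the most abundant MyHC transcript in every library. Its CPM was 15349, 24649 and 36565 in labelled Ctrl libraries 1, 2 and 3 and 80134, 57352 and 72862 in labelled cKO libraries 1, 2 and 3. The highest labelled Ctrl library thus stayed below the lowest labelled cKO library, while the labelled Ctrl libraries spread 2.38-fold among themselves. The log2 fold change was 1.46 (SE 0.33, adjusted p = 0.0213 from edgeR, n = 3 per group). The call was lost without the library labelled Ctrl 2 (adjusted p = 0.0764), cKO 1 (0.0663) or cKO 3 (0.0732), with log2 fold changes of 1.20 to 1.81 over the 6 fits that left out 1 library. It was also lost with the replicate number as a block (log2 fold change 1.53, adjusted p = 0.0554 from edgeR).

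Type IIx Myh1 had 10649, 11509 and 7387 CPM in labelled Ctrl libraries 1, 2 and 3 and 4399, 4342 and 6795 CPM in labelled cKO libraries. The library labelled Ctrl 3, the lowest of its group, lay close to cKO 3, the highest of the other. Its log2 fold change was -0.93 (SE 0.25, adjusted p = 0.0341 from edgeR), a 1.90-fold difference and the only one of the 5 under 2-fold. The adjusted p rose to 0.1005 without Ctrl 1, 0.107 without Ctrl 2, 0.10997 without cKO 1 and 0.0724 without cKO 2. With the replicate number as a block it was 0.101.

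Type IIa Myh2 had 10138, 9941 and 5541 CPM in labelled Ctrl libraries 1, 2 and 3 and 3108, 5305 and 2479 CPM in labelled cKO libraries. As for Myh1, the library labelled Ctrl 3 was the lowest of its group, but here cKO 2, not cKO 3, came nearest to it. The log2 fold change was -1.23 (SE 0.34, adjusted p = 0.0392 from edgeR). The call was lost without Ctrl 1 (adjusted p = 0.116), Ctrl 2 (0.111), cKO 1 (0.124) or cKO 3 (0.119). Counted stretches of these genes are not all distinct, since the coding sequences of Myh2 and Myh1 are 91.0% identical, and 18.3% of the 75-base stretches of the Myh2 transcript and 22.0% of those of Myh1 also occur in another gene. The antisense gene Myhas overlaps 8.11% of the exon bases of Myh1, and 9430073C21Rik 3.32% of those of Myh2. Whether strand was used in counting is not given in the sources used here, so reads of these overlaps cannot be told apart.

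The slow gene Myh7 had 3676, 1723 and 2219 CPM in labelled Ctrl libraries 1, 2 and 3 and 494, 974 and 75.3 CPM in labelled cKO libraries. The groups did not overlap, but the libraries labelled cKO spread 12.9-fold. Its log2 fold change of -2.30 (SE 0.79) was larger than that of Myh4, yet the adjusted p was 0.0742 from edgeR. DESeq2's Wald test gave an adjusted p of 0.0196 and total counts in edgeR gave 0.0489. Leaving out either cKO 2 (log2 fold change -3.18, adjusted p = 0.0370) or cKO 3 (-1.81, adjusted p = 0.0486) brought it past the threshold.

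The slow-fibre markers Tnni1, Tnnt1, Tnnc1, Tpm3, Atp2a2 and Myl2 had a summed level of 6023 to 9967 CPM in labelled Ctrl libraries and 269 to 2326 CPM in labelled cKO libraries. Of these, Atp2a2, Myl2 and Tnnt1 passed the test, each higher in labelled Ctrl libraries (3 of 6, against 11.8% of all genes tested), while Tnni1, Tnnc1 and Tpm3, like Myh7 itself, did not (log2 fold changes of -2.53, -2.38 and -1.91, adjusted p = 0.0557, 0.0671 and 0.0786 from edgeR). The fast-fibre markers Tnni2, Tnnt3, Tnnc2, Atp2a1, Pvalb and Actn3 rose with Myh4, with 6 of 6 higher in labelled cKO libraries (12.6% of all genes tested) and summed levels of 40362 to 56077 CPM in labelled Ctrl libraries and 88712 to 105848 CPM in labelled cKO libraries. Of these 9 marker calls, that of Atp2a1 alone held in 6 of 6 fits that left out 1 library, and the replicate block ended it along with those of Tnnt3, Tnnc2 and Tnni2. Their part in the MyHC values was not tested. Antisense genes, including Mhrt, overlap 13.3% of the exon bases of Myh7.

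**Figure D2:**
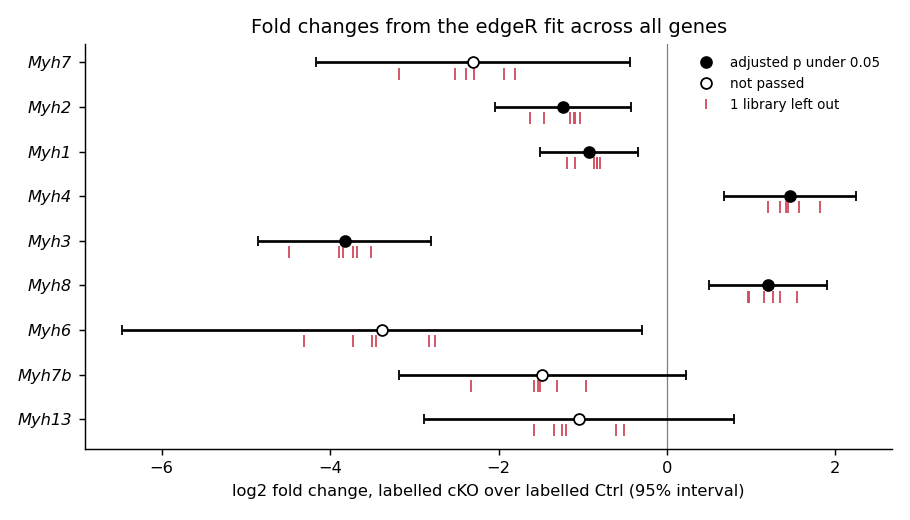
Log2 fold changes of the 9 MyHC genes, labelled cKO over labelled Ctrl, from the edgeR fit across all genes, with 95% intervals and filled circles where the adjusted p was under 0.05. Red ticks give the value in each of the 6 fits that left out 1 library, and none of them lies on the other side of 0.

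The embryonic gene Myh3 had the smallest adjusted p of the 9 genes. It had 159, 201 and 171 CPM in labelled Ctrl libraries 1, 2 and 3 and 6.21, 21.5 and 9.68 CPM in labelled cKO libraries. The lowest labelled Ctrl library was thus several times above the highest labelled cKO library, and the labelled Ctrl libraries spread only 1.27-fold. The log2 fold change was -3.83 (SE 0.44, adjusted p = 0.00302 from edgeR), a 14.2-fold higher level in the libraries with low Ppapdc3. The call held in 6 of 6 fits that left out 1 library (adjusted p 0.000825 to 0.0163), with the largest change, -4.49, without cKO 2. Only 1.86% of its 75-base stretches occur in another gene.

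The neonatal gene Myh8 went the other way, with 28.2, 39.6 and 61.3 CPM in labelled Ctrl libraries 1, 2 and 3 and 78.1, 90.3 and 128 CPM in labelled cKO libraries. The groups did not overlap. The log2 fold change was 1.20 (SE 0.30, adjusted p = 0.0275 from edgeR), and the call was lost without Ctrl 1 (adjusted p = 0.0709), Ctrl 2 (0.0881) or cKO 3 (0.0831). Myh8 shares 12.9% of its 75-base stretches with other genes, 6.85% with Myh2, 5.20% with Myh1, 4.28% with Myh4 and 2.83% with Myh13. Per 1000 Myh4 counts there were 1.84, 1.61 and 1.68 Myh8 counts in labelled Ctrl libraries and 0.975, 1.58 and 1.76 in labelled cKO libraries. This ratio spread 1.89-fold over the 6 libraries and overlapped between groups. Whether reads of these genes were counted for Myh8 was not tested.

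The heart gene Myh6 had 659, 323 and 177 CPM in labelled Ctrl libraries 1, 2 and 3, and 39.5, 71.3 and 0.250 CPM in labelled cKO libraries, the last from 11 counts. The groups did not overlap, but the libraries labelled cKO spread 285-fold, and the log2 fold change of -3.39 (SE 1.32) did not pass (adjusted p = 0.103 from edgeR). Without cKO 3 it was -2.82 and passed (adjusted p = 0.0378). Without cKO 2 it was -4.32 (adjusted p = 0.0950) and with the replicate number as a block -4.44 (0.0809), and neither passed. Of the heart markers, Nppa, Nppb, Myl7 and Tbx20 were too low to be tested and neither Tnni3 nor Gja5 passed, and the 6 summed to 5.59 to 6.56 CPM in labelled Ctrl libraries and 4.88 to 5.64 CPM in labelled cKO libraries. The coding sequences of Myh6 and Myh7 are 91.7% identical, and 15.5% of the 75-base stretches of Myh6 occur in Myh7. Per 1000 Myh7 counts there were 179, 188 and 79.6 Myh6 counts in labelled Ctrl libraries and 79.8, 73.2 and 3.32 in labelled cKO libraries. Whether reads of Myh7 were counted for Myh6 was not tested.

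Myh7b had 38.8, 27.0 and 29.5 CPM in labelled Ctrl libraries 1, 2 and 3 and 11.6, 21.2 and 1.43 CPM in labelled cKO libraries. The groups did not overlap, and no 75-base stretch of it occurs in another gene, but the log2 fold change of -1.48 (SE 0.73) did not pass (adjusted p = 0.178 from edgeR) and was -0.97 without cKO 3 and -2.33 without cKO 2. The extraocular gene Myh13 was the lowest, with 10.9, 5.50 and 5.03 CPM in labelled Ctrl libraries and 5.56, 4.60 and 0.295 CPM in labelled cKO libraries, the last from 13 counts. Its groups overlapped (log2 fold change -1.05, SE 0.78, adjusted p = 0.360 from edgeR). The library labelled cKO 3 was the lowest of all 6 in Myh7, Myh2, Myh6, Myh7b and Myh13, and Ctrl 1 was the highest in Myh7, Myh2, Myh6, Myh7b and Myh13.

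Levels of different genes were compared per length, as CPM per kb of the transcript with the longest coding sequence. In the libraries labelled Ctrl the order by mean level per kb was Myh4 (4242), Myh1 (1620), Myh2 (1404), Myh7 (408), Myh6 (63.2), Myh3 (29.3), Myh8 (6.997), Myh7b (5.15) and Myh13 (1.18). Neighbours overlapped over the 3 libraries for Myh1 and Myh2, Myh6 and Myh3, and Myh8 and Myh7b. In the libraries labelled cKO the order was Myh4 (11655), Myh1 (852), Myh2 (597), Myh7 (82.6), Myh8 (16.1), Myh6 (6.05), Myh3 (2.07), Myh7b (1.85) and Myh13 (0.575), so that Myh8 stood above Myh6 and Myh3. Only Myh4 and Myh1, Myh2 and Myh7, and Myh8 and Myh6 were neighbours without overlap there.

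The 9 genes together took 4.53%, 5.25% and 5.63% of all counts in labelled Ctrl libraries 1, 2 and 3 and 7.63%, 6.70% and 7.42% in labelled cKO libraries. Within that sum, Myh4 made up 37.7%, 50.9% and 70.1% in labelled Ctrl libraries and 90.8%, 84.1% and 88.5% in labelled cKO libraries. In this share the 3 labelled Ctrl libraries stood farther apart than the 3 labelled cKO libraries. The means were 52.9% ± 16.3 (SD, n = 3) and 87.8% ± 3.38 (SD, n = 3), without overlap (p = 0.1 by an exact permutation test, two-sided, which is as low as 3 libraries against 3 can go).

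The other adult fast genes had smaller shares in labelled cKO libraries. The share of Myh2 was 24.9%, 20.5% and 10.6% in labelled Ctrl libraries and 3.52%, 7.78% and 3.01% in labelled cKO libraries. The share of Myh1 was 26.2%, 23.8% and 14.2% against 4.98%, 6.37% and 8.25%. These 2 genes together held 51.1%, 44.3% and 24.8% of the sum in labelled Ctrl libraries and 8.50%, 14.1% and 11.3% in labelled cKO libraries, and only in Ctrl 1 did they exceed Myh4. The share of Myh7 was 9.03%, 3.56% and 4.25% in labelled Ctrl libraries and 0.560%, 1.43% and 0.0914% in labelled cKO libraries.

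The other 5 genes together held 2.20%, 1.23% and 0.850% of the sum in labelled Ctrl libraries and 0.160%, 0.306% and 0.170% in labelled cKO libraries. Of all 9 shares, 8 did not overlap between groups (exact two-sided permutation test, p = 0.1 for each). The exception was Myh8, at 0.0694%, 0.0817% and 0.117% against 0.0885%, 0.133% and 0.156% (exact two-sided permutation test, p = 0.2), although its CPM did not overlap, whereas the CPM of Myh13 overlapped and its share did not. The shares add up to one sum, so that a larger share of Myh4 leaves less for the others. The 95% Wilson interval of the Myh8 share ran from 0.0654% to 0.0736% in Ctrl 1, its lowest library, and from 0.152% to 0.160% in cKO 3, its highest, and such intervals cover counting error only.

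**Figure D3:**
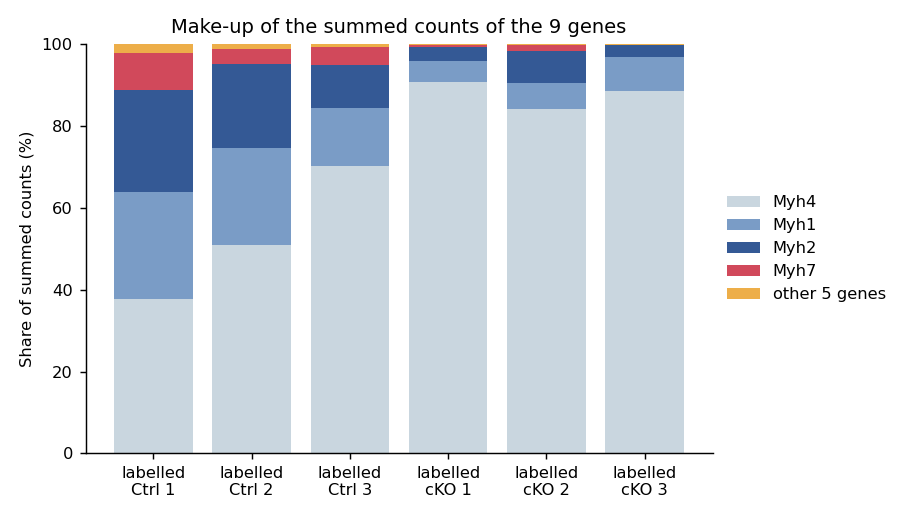
Share of each MyHC gene in the summed counts of the 9 genes, in percent, with 1 stacked bar per library and the 5 low genes merged. Myh4 takes 37.7% to 70.1% in labelled Ctrl libraries and 84.1% to 90.8% in labelled cKO libraries.

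Ratios within a library do not depend on the scaling between libraries. The mean log2 ratio of Myh7 to Myh4 was -3.31 ± 1.09 (SD, n = 3) in labelled Ctrl libraries and -7.71 ± 2.04 in labelled cKO libraries, a difference of -4.40, which was -3.30 without cKO 3, -5.32 without cKO 2 and -3.77 without Ctrl 1. For Myh2 to Myh4 the difference was -2.79 (-3.38 without Ctrl 3) and for Myh1 to Myh4 it was -2.47. The groups did not overlap in any of these 3 ratios. The ratio of Myh3 to Myh8 changed side, from 5619, 5091 and 2788 Myh3 counts per 1000 Myh8 counts in labelled Ctrl libraries to 79.5, 238 and 75.4 counts per 1000 in labelled cKO libraries, a log2 difference of -5.26.

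Myh2 had fewer counts than Myh1 in every library but the one labelled cKO 2, and their ratio overlapped between groups. Per 1000 Myh1 counts there were 952, 864 and 750 Myh2 counts in labelled Ctrl libraries and 706, 1222 and 365 in labelled cKO libraries. The range of the libraries labelled cKO thus enclosed that of the libraries labelled Ctrl, and the mean log2 difference of -0.32 turned to 0.13 without cKO 3. The ratio of Myh6 to Myh7 (log2 difference -2.35, but -0.86 without cKO 3, -3.12 without cKO 1 and -3.06 without cKO 2) and that of Myh8 to Myh4 (-0.29, a pair added after the values were seen) also overlapped.

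**Figure D4:**
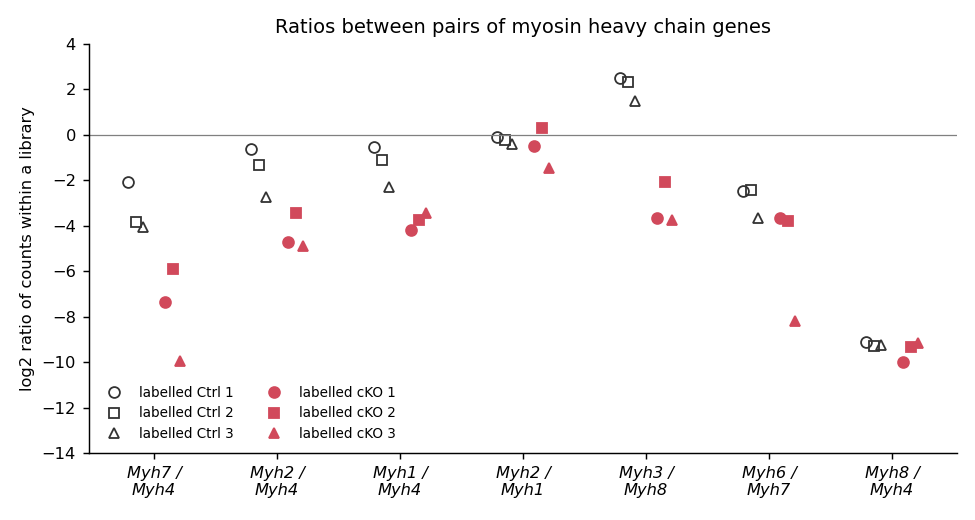
Log2 ratio of the counts of 7 pairs of MyHC genes within each library, with open black symbols for libraries labelled Ctrl and filled red symbols for those labelled cKO. The 3 ratios to Myh4 from Myh7, Myh2 and Myh1 and the ratio of Myh3 to Myh8 separate the groups, and the other 3 overlap.

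Neighbours in the chromosome 11 cluster went in different directions. Between Myh3 and Myh2, both higher in labelled Ctrl libraries, lies 2310065F04Rik, a long non-coding RNA on the opposite strand (67112461 to 67120080), known as linc-MYH and for its link to fast MyHC expression. It had 37.6, 54.7 and 52.3 CPM in labelled Ctrl libraries 1, 2 and 3 and 173, 168 and 184 CPM in labelled cKO libraries. The groups stood far apart with little spread within either (log2 fold change 1.86, SE 0.15, adjusted p = 0.000897 from edgeR), and the call held in 6 of 6 fits that left out 1 library. Myhas, an antisense gene on the minus strand whose span (67211256 to 67237573) overlaps that of Myh1 but not that of Myh4, has no row under this symbol in the tables used here.

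**Figure D5:**
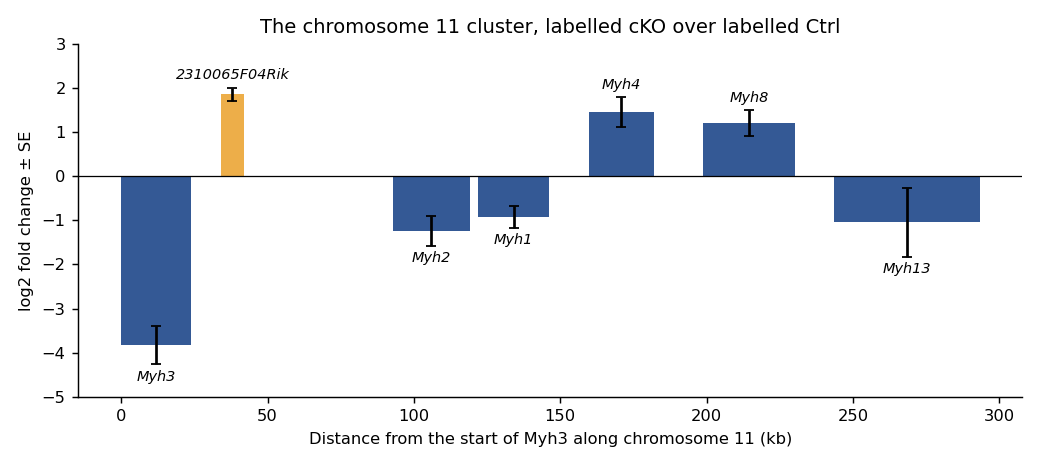
Log2 fold change with its standard error for the 6 MyHC genes of the chromosome 11 cluster (blue) and 2310065F04Rik (orange), drawn over each gene's span in kb from the start of Myh3, where positive values are higher in labelled cKO libraries. Myh3, Myh2, Myh1 and Myh13 lie below 0, and Myh4, Myh8 and 2310065F04Rik above it.

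Partners of MyHC in the thick filament were counted from the same fit. Of 6 light chain genes tested (Myl7 was too low), 1 was higher in labelled cKO libraries (12.6% of all genes tested) and 2 in labelled Ctrl libraries (11.8% of all genes tested), with a median log2 fold change of -0.26 (-0.02 over all genes tested). Mylpf, the fast regulatory light chain, had 4107, 5507 and 5623 CPM against 8182, 6609 and 8303 (log2 fold change 0.60, SE 0.17, adjusted p = 0.0441 from edgeR). Myl2, the slow regulatory light chain, had 1510, 822 and 751 CPM against 176, 319 and 36.3 (-2.54, SE 0.71, adjusted p = 0.0395 from edgeR), and Myl6b, an alkali light chain of slow muscle, had a log2 fold change of -1.29 (SE 0.23). Mylpf and Myl2 each lost their call in 4 of 6 fits with 1 library left out (without Ctrl 1, Ctrl 2 or cKO 1 for both, cKO 3 for Mylpf and Ctrl 3 for Myl2), with adjusted p up to 0.152 and 0.116.

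Of 9 other thick filament genes tested, 3 were higher in labelled cKO libraries and 2 in labelled Ctrl libraries, against the same 12.6% and 11.8% of all genes, with a median log2 fold change of 0.28. Mybpc2, the fast myosin-binding protein C, had a log2 fold change of 1.30 (SE 0.26), and Myom2, an M-band protein of fast fibres, one of 0.93 (SE 0.21). Trim63, a ubiquitin ligase of the sarcomere, had 1.05 (SE 0.29). Myom3, an M-band protein of slow and intermediate fibres, had 634, 578 and 444 CPM in labelled Ctrl libraries and 107, 141 and 55.5 CPM in labelled cKO libraries (-2.45, SE 0.33, adjusted p = 0.00442 from edgeR). Mybpc1, the slow myosin-binding protein C, had -0.77 (SE 0.18). Myom3 kept its call in 6 of 6 fits that left out 1 library, whereas Mybpc2 lost it without Ctrl 2 or cKO 3, and Myom2, Mybpc1 and Trim63 lost it without Ctrl 1, Ctrl 2, cKO 1 or cKO 3 (adjusted p up to 0.119). The replicate block also ended the calls of Myom2, Mybpc1 and the light chain Mylpf.

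Among 14 regulators of MyHC genes, 5 were higher in labelled cKO libraries (12.6% of all genes) and 1 in labelled Ctrl libraries (11.8% of all genes), with a median log2 fold change of 0.28. Sox6, a repressor of slow fibre genes, had 73.1, 76.9 and 108 CPM against 182, 166 and 202 (log2 fold change 1.09, SE 0.16, adjusted p = 0.00563 from edgeR). Mafa, a large Maf factor linked to Myh4 (1.53, SE 0.30), Tead1 (0.54, SE 0.10), Tbx15, a T-box factor of glycolytic fibres (0.59, SE 0.15), and Eya1, a transcriptional coactivator (0.42, SE 0.12), were higher in labelled cKO libraries too. Vgll2, a TEAD cofactor, went the other way, with 232, 148 and 174 CPM against 67.9, 99.1 and 74.1 (-1.20, SE 0.20, adjusted p = 0.00819 from edgeR). Tead1, Tbx15 and Eya1, like Mylpf and Trim63, lost their calls with total counts, and Myl2, Trim63 and the marker Tnnt1 lost theirs with a robust fit. Tbx15 lost its call without Ctrl 1, Ctrl 2, Ctrl 3, cKO 1 or cKO 3 (adjusted p up to 0.0958 from edgeR), and Eya1 without Ctrl 1, Ctrl 2, cKO 1 or cKO 2 (adjusted p up to 0.135 from edgeR). Both calls were lost with the replicate block as well. The other 8 regulators did not pass, among them Mef2c, which had 1002 ± 86.8 CPM (SD, n = 3) in labelled Ctrl libraries and 855 ± 65.4 CPM (SD, n = 3) in labelled cKO libraries. The log2 fold change of Mef2c was -0.23 (SE 0.11, adjusted p = 0.169 from edgeR), and its groups did not overlap, as in 43.9% of all genes tested.

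Across the 6 libraries and 9761 genes with a mean of at least 5 CPM, the genes most like Myh7, Myh4, Myh3, Myh2 and Myh1 were ranked by Pearson's r of log2 CPM. The closest to Myh7 were Use1 (r = 0.997), Tnni1 (0.996) and Tnnc1 (0.996), the latter being the slow troponin I and C genes. Those closest to Myh4 were Ppp3ca, a calcineurin catalytic subunit, Eml1 and Znhit6, and those closest to Myh3 were Tmem205, Micu2 and Klc4. For Myh2 they were Bdh1, Tspan7 and Arpp21, and for Myh1 Zfp110, Rabggtb and Ace. All of these r were at least 0.989, and since the points share 1 difference between 2 labelled groups, the values are a description only. Among the MyHC genes themselves, Myh6 and Myh7b (r = 0.99), Myh7 and Myh7b (0.98) and Myh7 and Myh6 (0.98) were the most alike, Myh8 was most like Myh4 (0.94), and Myh1 was closer to Myh3 (0.81) than to Myh7 (0.44).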

How the data were processed

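Gene counts of 6 bulk RNA-Seq libraries of GP muscle, 3 per labelled group, were used. The authors deposited 1 table of whole-number counts per library, without normalization, made from paired-end 75-base reads with FastQC 0.11.8, Trimmomatic 0.39, HISAT2 2.1.0 (mm10) and featureCounts 1.6.2, per their methods and processing notes. The annotation and strand setting are not given in the sources used here. All genes were fitted with edgeR 4.0.16 in R 4.3.3 (TMM, filterByExpr, glmQLFit, glmQLFTest) and DESeq2 1.42.0 was an alternative. SE came from the F statistic. Ratios used a pseudocount of 0.5 counts, and log2 CPM for Pearson's r a prior count of 2. Exact permutation tests, two-sided, compared shares. Annotation and lengths come from GENCODE M21 on GRCm38 and promoters from RefSeq.

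The 9 genes and all lists were chosen with earlier results of these data known. From each list, genes past an adjusted p of 0.05 were named in order of p, up to 6 a list, and the listed genes given with fold changes or levels that did not pass (Mef2c, Unc45b, Smyd1, Myod1, Pax7, Myf5, Dcn, Col1a1, Tnni1, Tnnc1 and Tpm3) were added after their values were seen. One regulator of the list is not reported here, and its list was counted without it. Alternatives were DESeq2's size factors, total counts, TMM without the 9 genes, other filters, a robust fit, the replicate number as a block, counts per kb, other sums for the shares, another pseudocount and each library left out. Both tools were run on simulated counts with known changes, and the outcome is not reported here. The labels do not say whether the 3 mice of a group came from separate litters or days, so p-values measure the spread between these mice.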

Additional observations from a re-analysis of the deposited data

How the results depend on the processing

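None of the 9 log2 fold changes changed direction under any alternative tried. The normalization, filter, tool and block alternatives moved 4 of 72 of them across the threshold: Myh7 passed with total counts (-2.53) and with DESeq2 (-2.29), and with the replicate block Myh1 (-0.94, adjusted p = 0.101 from edgeR) and Myh4 (1.53, adjusted p = 0.0554) no longer passed. Deviations of same-numbered libraries correlated at 0.08, -0.21 and -0.002, and not every library correlated best with its own number. The labels name no shared litter or day. With 3 libraries per group, these correlations cannot show whether same-numbered mice shared one, so the block was kept as an alternative only. The block gave 241 genes higher in labelled cKO libraries and 460 in labelled Ctrl libraries. Of 36 calls among listed genes other than the 9, 14 were lost with the block (Mylpf, Myom2, Mybpc1, Hsp90aa1, Tbx15, Eya1, Ckm, Atp2a1, Tnnt3, Tnnc2, Tnni2, Col3a1, Adgre1 and Tagln), 5 with total counts, 3 with a robust fit and 24 in at least 1 fit that left out a library.

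Genes past both thresholds numbered 302 higher in labelled cKO libraries and 556 in labelled Ctrl libraries, 157 and 1023 with total counts, and 1786 and 1668 with no fold change limit. Of 54 fold changes from fits that left out 1 library, 14 lost their call and 3 gained one. Only the 5 genes called with all 6 libraries could lose a call. Myh2 and Myh1 each kept theirs in 2 of 6 fits, Myh4 and Myh8 in 3 of 6 and Myh3 in 6 of 6. Genes past both thresholds numbered 172 to 387 and 398 to 685 in the fits that left out 1 library, the 172 without Ctrl 1. Over the same fits log2 fold changes ranged from -3.18 to -1.81 for Myh7, -1.63 to -1.04 for Myh2, -1.19 to -0.80 for Myh1, 1.20 to 1.81 for Myh4, -4.49 to -3.52 for Myh3, 0.96 to 1.55 for Myh8, -4.32 to -2.76 for Myh6, -2.33 to -0.97 for Myh7b and -1.58 to -0.51 for Myh13. The log2 ratio of Myh2 to Myh1 ranged from -0.75 to 0.13 and reversed without cKO 3 alone (0.13). Differences in the log2 ratio ranged from -5.32 to -3.30 for Myh7 to Myh4, -3.38 to -2.32 for Myh2 to Myh4 and -3.12 to -0.86 for Myh6 to Myh7. Without Ctrl 1 the share differences fell in size from -4.92 to -3.21 percentage points for Myh7, from -0.825 to -0.453 for Myh6 and from -0.0114 to -0.00604 for Myh13, and that of Myh8 went from 0.0361 to 0.0547 without cKO 1, to 0.0210 without cKO 3 and to 0.0167 per kb of exon length. All other alternatives to the shares and ratios, those per kb of the longest coding transcript being added after seeing the data, gave the same direction within the spread between mice. The 11 to 63 counts of Myh6, Myh13 and Myh7b in the library labelled cKO 3 and the 3 mice per group limit the precision of these values.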

Other observations

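Genes that act on MyHC outside the thick filament were counted too, with directions given for the labelled groups, of which labelled Ctrl has low Ppapdc3. Of 5 genes for the folding and assembly of myosin, 1 passed, against 24.4% of all genes tested (median log2 fold change of the list -0.13, of all genes tested -0.02), Hsp90aa1, a chaperone, at 123 ± 30.4 CPM (SD, n = 3) in labelled Ctrl libraries and 55.9 ± 12.1 in labelled cKO libraries (log2 fold change -1.14, SE 0.22, adjusted p = 0.0126 from edgeR), a call that the replicate block ended. The muscle myosin chaperone Unc45b had a log2 fold change of 0.32 (SE 0.13) and its partner Smyd1 one of 0.14 (SE 0.18), and neither passed.

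Of 4 class II myosin heavy chain genes that do not build sarcomeres, 3 were higher in labelled Ctrl libraries, against 11.8% of all genes tested (median log2 fold change of the 4 genes -0.55). Myh10, non-muscle myosin IIB, had 159, 134 and 110 CPM in labelled Ctrl libraries 1, 2 and 3 and 41.9, 64.1 and 29.8 CPM in labelled cKO libraries (log2 fold change -1.57, SE 0.28, adjusted p = 0.00922 from edgeR), and kept its call in 6 of 6 fits that left out 1 library. Myh11, of smooth muscle (-0.57, SE 0.13), lost its call without Ctrl 1, Ctrl 2 or cKO 3 (adjusted p up to 0.0699), and Myh14 (-0.54, SE 0.11) without Ctrl 1 or Ctrl 2 (up to 0.0561). Smooth muscle markers (Myh11, Acta2 and Tagln) summed to 234 to 250 CPM in labelled Ctrl libraries and 152 to 190 CPM in labelled cKO libraries, and Tagln passed beside Myh11 itself (11.8% of all genes tested were higher in labelled Ctrl libraries). Tagln lost its call in 4 of 6 fits that left out 1 library (without Ctrl 1, Ctrl 2, cKO 1 or cKO 3, adjusted p up to 0.0758 from edgeR), and the part of these markers in the Myh11 value was not tested.

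Of 9 genes of fibre formation tested, 2 passed, against 24.4% of all genes tested, and both were higher in labelled Ctrl libraries (median log2 fold change of the 9 genes -0.50). Mymk and Mymx have no row under these symbols in the tables used here, and older symbols of them were not searched. Myog, a transcription factor of myoblast differentiation, had 19.6, 22.1 and 20.8 CPM against 6.07, 5.09 and 5.73 (log2 fold change -1.89, SE 0.10, adjusted p = 0.00055 from edgeR). Ncam1, an adhesion molecule of immature and denervated fibres, had 28.7, 43.7 and 45.3 CPM against 11.1, 10.96 and 7.98 (-1.97, SE 0.21, adjusted p = 0.00253 from edgeR). Myod1, a transcription factor of the same family as Myog, had 23.1, 26.7 and 15.4 CPM against 54.7, 24.1 and 40.3 (0.87, SE 0.31, adjusted p = 0.0836 from edgeR) and did not pass. The satellite cell genes Pax7 and Myf5 did not pass, and summed to 3.09 to 3.83 CPM and 3.18 to 4.91 CPM. Markers of macrophages and leukocytes (3 of 5 higher in labelled Ctrl libraries, against 11.8% of all genes tested, 48.1 to 61.2 against 25.2 to 39.2 CPM) and of fibroblasts (2 of 5 higher in labelled Ctrl libraries, 984 to 1178 against 650 to 1199 CPM) were higher in the same libraries as Myh3 in those members, while the fibroblast genes Dcn and Col1a1 had log2 fold changes of 0.20 and 0.08 and did not pass. Of these 5 calls, each was lost in at least 1 fit that left out a library, with Adgre1 kept in 1 of 6, Cd68 and Col3a1 in 2 of 6, Csf1r in 4 of 6 and Lum in 5 of 6, and their part in the Myh3 value was not tested. None of the endothelial, Schwann cell, adipocyte and tendon markers passed.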
